A study of Mus musculus with 27 samples.

Results

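The respiratory chain and the ATP synthase were followed through 81 nuclear genes in KUSA4b10 cells, a stromal cell line from mouse marrow able to acquire traits of osteoblasts. The genes were taken by symbol, as every Nduf subunit gene, Sdh gene, Uqcr gene, nuclear Cox subunit gene and Atp5 gene with a probe set of a single symbol. They were 81 of 18193 genes on the arrays, and 79 of them were bright enough to be among the 15711 genes tested. By complex they were 35 genes of complex I, 4 of complex II, 8 of complex III, 17 of complex IV and 17 of complex V, the ATP synthase. Cells were left untreated, or received PTH(1–34), a fragment of parathyroid hormone, at 10 nM, or PTHrP(1–141), parathyroid hormone-related protein, at 20 nM. RNA was taken after 1, 6 or 24 h, with 3 arrays in each of the 9 groups, and the comparison asks what each ligand does to the cells against untreated cells of the same time. All groups are of the same cell line, and the peptides differ in sequence, length and labelled dose at once, which cannot be told apart in any comparison between them. The labels do not say that replicates were separate cultures, so each p reflects the spread among these arrays alone, which may be technical.

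Complex I takes electrons from NADH and complex II takes them from succinate, complex III passes them to cytochrome c, and complex IV hands them to oxygen. The proton gradient built on the way drives the ATP synthase, whose catalytic head makes ATP while a ring of c subunits turns in the membrane. Osteoblasts and their precursors use both respiration and glycolysis. Many nuclear genes of these complexes are known targets of the factors NRF1, GABP of the ETS family, YY1 and ERR alpha, helped by the PGC-1 coactivators. Subunits encoded by mitochondrial DNA have other names and were not covered.

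Promoters are shown as examples for 5 of the called members that carry a motif of these factors, and for Cox7a2l and Ndufv1, whose transcripts gave some of the steadiest calls. Each line gives the 120 bases before the annotated start, 5′ to 3′ on the gene's strand, from RefSeq on GRCm38.p6, with capitals for a match to a searched motif or its reverse complement.
Atp5j: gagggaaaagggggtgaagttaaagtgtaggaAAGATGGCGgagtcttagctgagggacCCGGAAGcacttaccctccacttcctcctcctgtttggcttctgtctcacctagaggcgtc
Atp5k: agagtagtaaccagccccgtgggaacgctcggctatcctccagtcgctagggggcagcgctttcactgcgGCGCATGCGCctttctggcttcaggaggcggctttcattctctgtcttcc
Atp5g2: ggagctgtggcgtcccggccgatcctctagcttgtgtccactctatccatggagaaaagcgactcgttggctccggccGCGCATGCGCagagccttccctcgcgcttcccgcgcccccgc
Sdhd: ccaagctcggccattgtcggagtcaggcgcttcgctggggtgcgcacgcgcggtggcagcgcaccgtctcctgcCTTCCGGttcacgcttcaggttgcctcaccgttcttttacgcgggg
Uqcr11: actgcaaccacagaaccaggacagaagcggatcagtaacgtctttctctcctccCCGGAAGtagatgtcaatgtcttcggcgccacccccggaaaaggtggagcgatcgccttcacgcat
Cox7a2l: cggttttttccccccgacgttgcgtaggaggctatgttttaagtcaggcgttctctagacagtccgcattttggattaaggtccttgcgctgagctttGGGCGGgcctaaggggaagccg
Ndufv1: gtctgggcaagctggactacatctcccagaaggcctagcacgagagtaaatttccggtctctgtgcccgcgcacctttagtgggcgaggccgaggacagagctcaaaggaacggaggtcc
The windows lie at chr16:84834977-84835096 for Atp5j (1 of its 2 listed promoters), chr5:108434400-108434519 for Atp5k, chr15:102671048-102671167 for Atp5g2, chr9:50603850-50603969 for Sdhd, chr10:80406822-80406941 for Uqcr11, chr17:83514334-83514453 for Cox7a2l and chr19:4012756-4012875 for Ndufv1, all on the minus strand. The capitals are the YY1 motif AAGATGGCG and then the ETS motif CCGGAAG in Atp5j, the palindromic NRF1 motif in Atp5k and Atp5g2, the ETS motif in Uqcr11 and, on the other strand, in Sdhd, and the GC box GGGCGG in Cox7a2l. The Ndufv1 window holds none of the searched letters. Of the 2 promoters of Atp5j the one with more of the motifs is shown, and the other held GC boxes but no ETS or YY1 match.

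RefSeq promoters of 300 bases, from 250 before to 50 after the start, were found for 66 of the 81 genes, as 71 windows, and both strands were searched for exact letters. The ETS motif was in 23.9% of the members' windows against 8.86% of all 32851 promoters, in 17 members. These were Atp5e, Atp5h, Atp5j, Atp5k, Atp5l, Atp5md, Cox6a1, Cox6b1, Cox8a, Ndufb6, Ndufb7, Ndufs3, Ndufs8, Sdhb, Sdhd, Uqcr11 and Uqcrh. The NRF1 motif was in 5.63% against 0.971%, in Atp5g2, Atp5k, Cox6a1 and Uqcrc1. The YY1 motif was in 8.45% against 1.40%, and the ERR motif TCAAGGTCA in 2.82% against 0.423%. The cyclic AMP response element TGACGTCA was in 4.23% against 1.79%, in Ndufa10, Ndufb2 and Uqcrfs1, and the GC box was in 40.8% against 35.7%. None of these letter strings contains another, and the shares describe the letters only.

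Array medians ran from 83.03 to 90.87 on the deposited linear scale. Osteoblast and marrow stromal markers were bright, with a summed linear intensity from 47100 to 90900 over the 27 arrays. Adipocyte markers summed to between 11600 and 18500, and muscle, chondrocyte, macrophage and blood, and endothelial markers to at most 1180, 1170, 1030 and 359. The log2 ratio of the 3′ to the 5′ Actb probe set, a measure of RNA quality, was 0.254 ± 0.046 (SD, n = 3) in untreated cells and 0.337 ± 0.0089 with PTH at 6 h, and 0.376 ± 0.013 untreated, 0.422 ± 0.0096 with PTH and 0.440 ± 0.012 with PTHrP at 24 h. These 3 ligand groups lay wholly above their untreated arrays (two-sided exact permutation test, p = 0.1 each, the smallest that 3 arrays against 3 can give). At 1 h, where no member was called, the PTH arrays also lay wholly above the untreated ones, with 0.269 ± 0.019 against 0.229 ± 0.022 (exact p = 0.1). The part of this ratio in the results below was not tested. In bulk RNA, fewer cells of a type and less RNA per cell cannot be told apart.

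Most members were bright and steady: 70 of the 81 had a mean log2 intensity of 9 or more, and the group means of 73 stayed within 0.6 log2 units over the 9 groups. The widest ranges belonged to Cox6a2, Cox7a1 and Cox7c. Ndufb4 and Cox7b2, with mean log2 values of 4.53 and 3.79, did not pass the filter on dim genes. The median of the 70 bright members was 11.47, 11.61 and 11.71 on the untreated arrays at 1 h, 11.72, 11.66 and 11.64 at 6 h and 11.41, 11.36 and 11.44 at 24 h. At 24 h it was 11.32, 11.27 and 11.21 with PTH, and 11.32, 11.27 and 11.29 with PTHrP. The 6 ligand arrays at 24 h lay below the 3 untreated arrays of that time, which lay below the untreated arrays of 1 and 6 h.

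**Figure D1:**
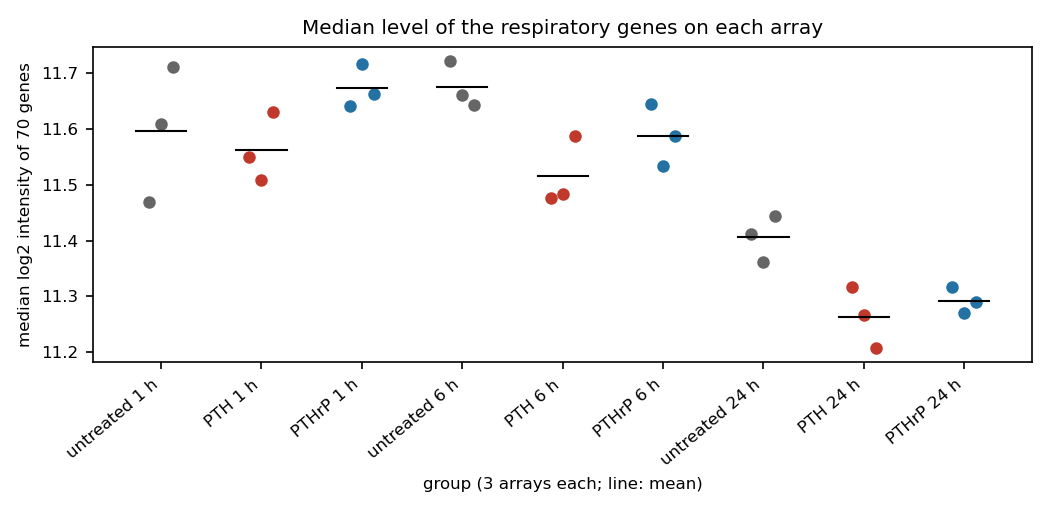
Median log2 intensity of the 70 member genes with a mean of at least 9 (vertical axis) on each array, by group (horizontal axis), with 1 point per array. The 6 ligand arrays at 24 h, between 11.21 and 11.32, lie below the 3 untreated arrays of that time, between 11.36 and 11.44.

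At 1 h no member was called with either peptide. With PTH, limma called 0 of 79 members against 1.74% of all tested genes, and 0 members had an unadjusted p under 0.05. With PTHrP it called 0 members against 1.81%, and 1 member, Ndufv1, which encodes the NADH-oxidising subunit of complex I, had an unadjusted p under 0.05 (0.16 ± 0.063 SE on the log2 scale, adjusted p = 0.393). The mean of all probe sets of a gene gave 1 call with each peptide, and array weights gave 1 with PTHrP. After PTHrP 75 of 79 members had a value above 0, with a median of 0.082 against 0.0074 over all tested genes. Over the 4702 tested genes with a mean log2 of 9 or more the median was 0.057, and over the bright members 0.081. The upper quartiles of the PTHrP arrays were 325, 330 and 290 on the linear scale and those of the untreated arrays 305, 305 and 301, and under quantile normalization the members' median was 0.015.

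At 6 h of PTH 16 members fell and 1 rose. Over all tested genes 17.9% fell and 11.4% rose, so the members' 20.3% lower was near the background and their 1.27% higher below it. Among the 4702 tested genes with a mean log2 of 9 or more, 27% fell and 19% rose, and 22.9% of the bright members fell. The members' median was -0.091 log2 units, with 60 of 79 below 0, against -0.0034 over all tested genes and -0.041 over the bright ones. The changes were small: the 95% interval of 77 of 79 members lay within 1.5-fold, Cox7a1 and Cox7c excepted. Beside these values, 3 of 9 osteoblast and stromal markers fell with PTH at 6 h, and their summed intensity was 88800 to 90900 untreated and 77700 to 78900 with PTH.

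In complex I, 8 of 34 tested genes (23.5%) fell with PTH at 6 h and 0 rose. This lies between the 17.9% lower of all tested genes and the 27% of the bright ones. Ndufv1 measured 12.00, 11.93 and 11.86 on the untreated arrays and 11.60, 11.59 and 11.67 with PTH. The groups did not overlap, and the difference was -0.31 ± 0.063 (adjusted p = 0.000366), with its other 2 probe sets at -0.35 and -0.11. Ndufa13, an accessory subunit also known as GRIM-19, measured 12.37, 12.37 and 12.43 untreated and 12.04, 12.13 and 12.13 with PTH, again without overlap, a difference of -0.29 ± 0.059 (adjusted p = 0.000425). Ndufb3, an accessory subunit, fell by 0.32 on the log2 scale (adjusted p = 0.00614). The small accessory subunits Ndufa6, Ndufa7 and Ndufa12 fell by 0.27, 0.23 and 0.22. Ndufs7 and Ndufs8, iron-sulfur subunits on the path to ubiquinone, fell by 0.26 each, with adjusted p-values of 0.0447 and 0.049 near the threshold.

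In complex II 2 of the 4 genes (50%) fell with PTH at 6 h, against 17.9% of all tested genes and 27% of the bright ones. Sdhd, a membrane anchor whose promoter is shown above, measured 11.01, 11.04 and 11.00 in untreated cells and 10.78, 10.70 and 10.81 with PTH. The groups did not overlap and the fall was 0.25 (adjusted p = 0.00915), a call lost without PTH array 2 (adjusted p = 0.0501). Sdhc, the other anchor, fell by 0.21 with an adjusted p of 0.0499, a call kept in 5 of 14 other settings and lost without any single array of the pair of groups. The flavoprotein gene Sdha had -0.076 ± 0.060 (adjusted p = 0.416) and the iron-sulfur gene Sdhb -0.19 ± 0.076 (adjusted p = 0.0693).

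In complexes III and IV, 1 of 8 and 2 of 16 tested genes fell with PTH at 6 h. These are 12.5% each, below the 17.9% of all tested genes. Cox7a2l, named as a complex IV subunit and known as a factor that joins complexes III and IV into supercomplexes, measured 12.07, 11.99 and 11.94 in untreated cells and 11.69, 11.67 and 11.63 with PTH. The groups stood well apart, with a difference of -0.34 ± 0.072 or 1.26-fold lower (adjusted p = 0.0007), and its other 2 probe sets gave -0.35 and -0.33. Cox7a2, a complex IV subunit, fell by 0.19 (adjusted p = 0.0463), and Uqcr10, a small complex III subunit, by 0.26 (adjusted p = 0.0259), calls kept in 4 and 9 of 14 other settings. The complex III core gene Uqcrc1 had 0.094 ± 0.078 (adjusted p = 0.438).

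In the ATP synthase 3 of 17 genes (17.6%) fell with PTH at 6 h, near the 17.9% of all tested genes and below the 27% of the bright ones. Atp5j, coupling factor 6 of the stalk that holds the head, measured 11.76, 11.69 and 11.67 untreated and 11.34, 11.36 and 11.45 with PTH, a difference of -0.33 ± 0.072 (adjusted p = 0.000901). Atp5l, subunit g of the membrane part, fell by 0.23 (adjusted p = 0.00573), and Atp5g2, a gene of the c ring, by 0.19 (adjusted p = 0.0479), a call kept in 3 of 14 other settings. For all 3 genes the PTH arrays lay below the untreated ones. The catalytic head genes were not called, with 0.036 ± 0.063 for Atp5a1 and 0.068 ± 0.053 for Atp5b.

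The falls of Cox7a2l, Ndufv1, Ndufa13, Ndufb3, Atp5j and Atp5l with PTH at 6 h were called in each of 14 other settings, which changed the normalization, the filter, the probe set, the fit or left out 1 array. Ndufa13, Ndufb3, Atp5j and Atp5l have 1 probe set each, so the mean of all probe sets left their values unchanged. The probe sets of Ndufv1 and Ndufa13 are of a kind that may match other transcripts. The number of members called was less steady. It fell from 17 to 10, 10 and 11 without untreated array 1, 2 or 3 of that time, and to 10 and 8 without PTH array 1 or 2. Of 24 other probe sets of the called members 22 had the same sign, the exceptions belonging to Atp5g2 and Ndufa12.

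**Figure D2:**
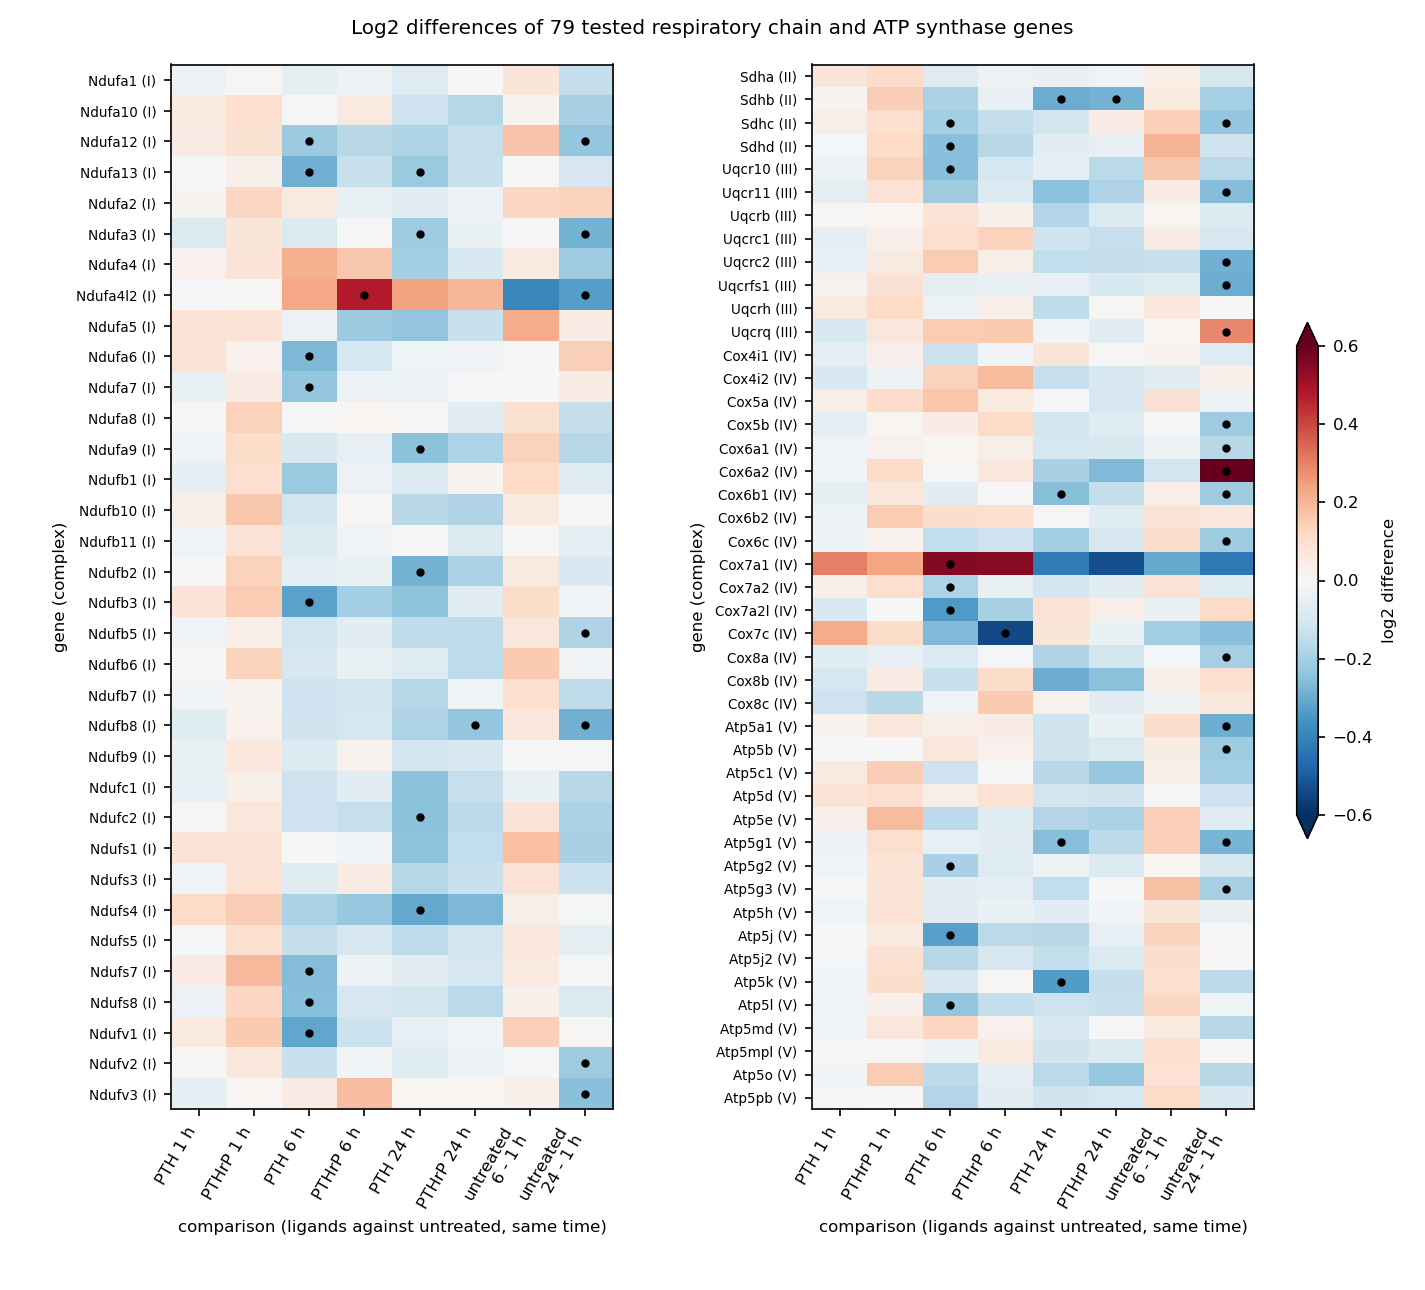
Log2 difference of each of the 79 tested members (rows) in 8 comparisons (columns), as colour, with a black dot where limma's adjusted p is under 0.05. Dots are most frequent for PTH at 6 h (17), PTH at 24 h (10) and untreated cells at 24 h against 1 h (22), and absent at 1 h.

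With PTHrP at 6 h 1 member rose and 1 fell, against 8.7% and 12.2% of all tested genes. Ndufa4l2, a hypoxia-inducible relative of Ndufa4, measured 7.85, 8.18 and 7.97 untreated and 8.57, 8.36 and 8.49 with PTHrP. The groups did not overlap, and the difference was 0.48 ± 0.12 or 1.39-fold (adjusted p = 0.00483), a call kept in all 14 other settings. With PTH it measured 8.34, 8.28 and 8.08, a difference of 0.23 ± 0.12 (adjusted p = 0.161). Of the 9 group means of Ndufa4l2, untreated cells at 6 h had the lowest and PTHrP at 6 h the highest. Cox7c, a small complex IV subunit seen here by a dim probe set, measured 6.65, 6.78 and 6.57 untreated and 6.16, 6.19 and 6.02 with PTHrP, a fall of 0.54 (adjusted p = 0.0151). That call was lost without untreated array 2 or PTHrP array 3 (adjusted p up to 0.0674), and 4 members were called without PTHrP array 1. The members' median was -0.034, against 0.031 over all genes and -0.038 over the bright ones, and it was 0.0095 under cyclic loess. The bright members alone had a median of -0.043, near that of the bright genes.

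The 16 members that fell with PTH at 6 h had values from -0.20 to -0.033 with PTHrP, and 0 of them were called, in comparisons that share the untreated arrays. Set directly against PTH at 6 h, PTHrP differed in 0 of 79 members by limma, against 7.62% of all genes, with 7 members at an unadjusted p under 0.05. Other settings called up to 18 members (array weights), and quantile normalization called 5. The 16 genes had differences from 0.052 to 0.23. They were chosen for low values on these same PTH arrays, which by itself favours differences above 0, so their sign decides nothing. For Ndufv1 the difference was 0.18, with a 95% interval from 0.051 to 0.31 (adjusted p = 0.0827), and for Cox7a2l it was 0.14, with an interval from -0.0063 to 0.29 (adjusted p = 0.271). At 1 and 24 h limma also called 0 members between the peptides, against 0% and 1.16% of all genes, with 3 and 5 members at an unadjusted p under 0.05 and, with array weights, 9 called at 24 h. The interval lay within 1.5-fold for 79 members at 1 h, for 78 at 6 h (all but Cox7c) and for 79 at 24 h.

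At 24 h of PTH 10 members fell and 0 rose, or 12.7% lower against 5.96% of all tested genes lower and 5.69% higher. Among the bright genes 9.06% fell and 9.46% rose, and of the bright members 14.3% fell. The members' median was -0.12, with 70 of 79 below 0, against -0.00084 over all genes, and it lay between -0.18 and -0.096 in the 8 other settings that keep all arrays. All 17 ATP synthase genes and all 8 complex III genes had values below 0, with 2 (11.8%) and 0 called.

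Atp5k, subunit e of the ATP synthase, measured 11.52, 11.44 and 11.50 in untreated cells and 11.29, 11.18 and 10.99 with PTH at 24 h. The groups did not overlap, and the difference was -0.34 ± 0.080 (adjusted p = 0.00569). Sdhb, the iron-sulfur subunit of complex II, measured 11.14, 11.09 and 11.21 untreated and 10.96, 10.83 and 10.75 with PTH, a fall of 0.30 (adjusted p = 0.00948). Cox6b1, a complex IV subunit, fell by 0.25 (adjusted p = 0.00825), and Atp5g1, another c ring gene, by 0.26 (adjusted p = 0.0293). In complex I 6 accessory genes fell, or 17.6% of the complex I genes tested, against 5.96% of all tested genes and 9.06% of the bright ones. Ndufs4 had -0.31, Ndufb2 -0.29, Ndufa9 -0.24, Ndufc2 -0.24, Ndufa13 -0.22 and Ndufa3 -0.21 log2 units. Ndufa13 was thus called with PTH at both 6 and 24 h.

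None of the 8 calls followed through other settings at 24 h of PTH was kept in all 14. A fit to the compared arrays alone ended the calls of Atp5k, Sdhb and Cox6b1, as did leaving out PTH array 3 for Atp5k and Sdhb, untreated array 3 for Sdhb and PTH array 2 for Cox6b1 (adjusted p up to 0.0543, 0.0641 and 0.0928). Without untreated array 1, 2 or 3 of that time the 10 members called became 5, 6 and 3, and without PTH array 2 or 3 they became 6 and 2. That fit called 0 members in all. Of 14 other probe sets of the called genes 11 had the same sign, the exceptions belonging to Atp5g1, Ndufa3 and Ndufs4, and the mean of all Atp5g1 probe sets was 0.047 (adjusted p = 0.752). Beside these members, 7 of 9 osteoblast and stromal markers fell, and their summed intensity was 73600 to 74100 untreated and 47100 to 49800 with PTH. Of 8 adipocyte markers 3 fell, and their sum was 14500 to 16900 untreated and 14300 to 15400 with PTH. The part of these shifts in the members' values was not tested.

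With PTHrP at 24 h 2 members fell and 0 rose, or 2.53% against 3.02% of all genes lower and 3.09% higher. Sdhb measured 10.81, 10.90 and 10.87, below each untreated array, a fall of 0.29 (adjusted p = 0.0222), so it was called with each peptide against the same untreated arrays. Ndufb8, a complex I subunit, fell by 0.23 (adjusted p = 0.0363), and its other probe set had the opposite sign. The 2 calls became 0 without untreated array 1 or 3 or without PTHrP array 1 or 3, and 1 without untreated array 2. The members' median was -0.090, with 70 of 79 below 0, against -0.0088 over all genes. Beside them, 5 of 9 osteoblast and stromal markers fell, to a summed intensity of 54400 to 63700. The part of this shift was not tested.

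The change of the PTH effect from 6 to 24 h was called in 4 members, against 20.4% of all genes. The effect on Cox7a2l was -0.34 at 6 h and 0.087 at 24 h, a change of 0.42 ± 0.10 (adjusted p = 0.00354) called in all 20 other settings. At 24 h Cox7a2l measured 12.14, 12.14 and 12.19 untreated and 12.18, 12.26 and 12.29 with PTH. The effect on Ndufv1 changed by 0.26 ± 0.089 (adjusted p = 0.0353). Ndufa4, named for complex I and found in complex IV, had 0.22 ± 0.10 at 6 h and -0.20 ± 0.10 at 24 h, neither called, and a change of -0.42 ± 0.15 (adjusted p = 0.044). Cox7a1 gave the last of the 4 calls. The count became 2 without untreated array 2 or PTH array 2 or 3 of 6 h.

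**Figure D3:**
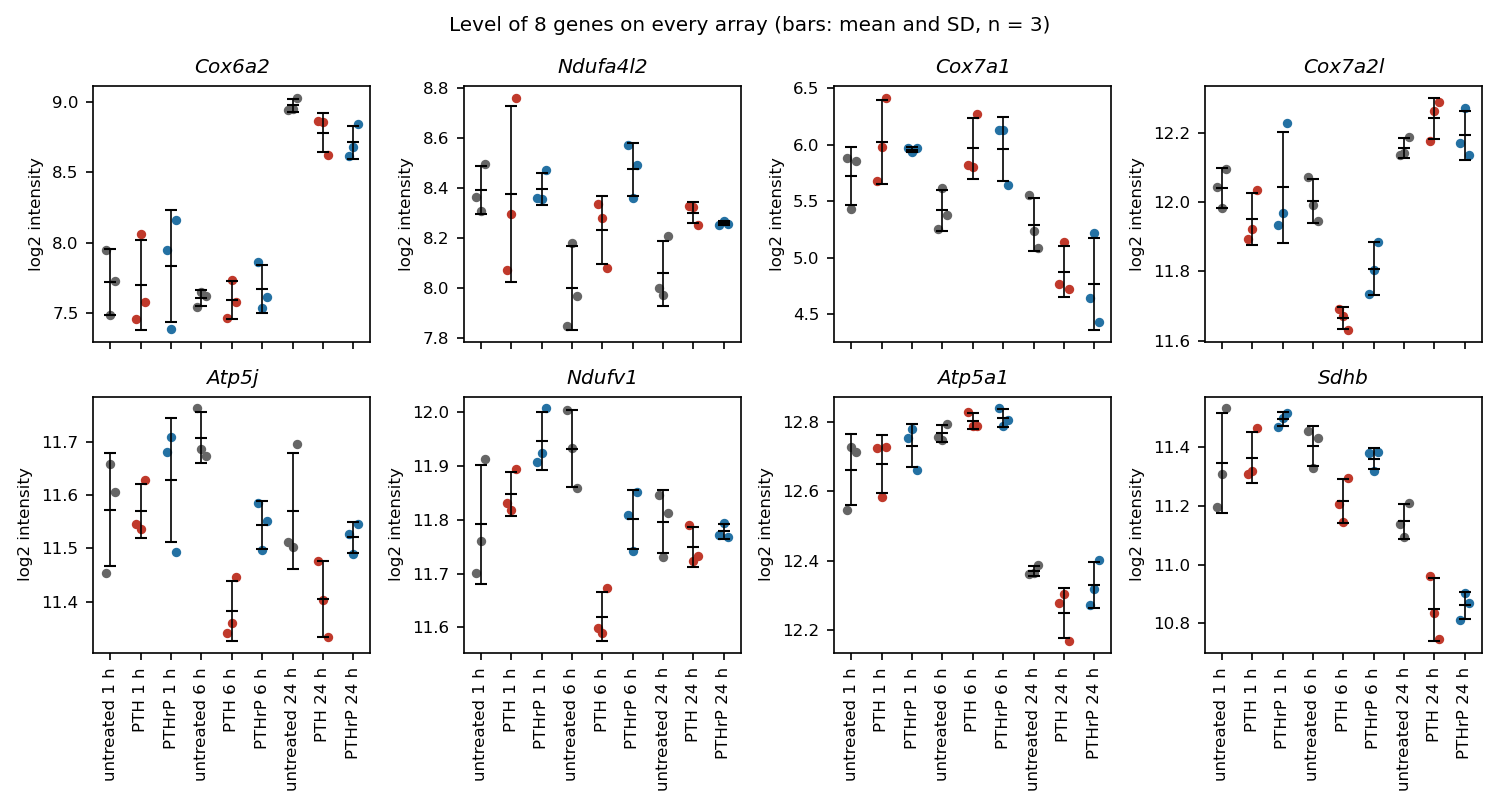
Log2 intensity (vertical axis) of 8 members on every array, by group (horizontal axis), with points for arrays and bars for the mean and SD of 3 arrays. Cox6a2 stands between 8.61 and 9.03 in the groups at 24 h, against 7.48 to 7.95 in untreated cells at 1 h, and the PTH arrays at 6 h lie below the untreated ones for Cox7a2l, Atp5j and Ndufv1.

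The members also differed between untreated cells of 24 h and of 1 h. In untreated cells 20 members were lower and 2 higher at 24 h than at 1 h, or 25.3% and 2.53%, against 11.5% and 11.6% of all genes. Among the bright genes 17.8% were lower and 19.3% higher, and of the bright members 27.1% were lower. The members' median was -0.12, against -0.0052 over all genes. Beside them, 4 of 9 osteoblast and stromal markers were lower and 1 higher. Their summed intensity was 83600 to 89200 at 1 h and 73600 to 74100 at 24 h. The Actb ratio of the untreated arrays did not overlap either, at 0.211 to 0.253 at 1 h and 0.362 to 0.386 at 24 h. The part of these shifts in the members' values was not tested. At 6 h against 1 h limma called 0 members (2.27% of all genes), with 5 at an unadjusted p under 0.05, 3 called with array weights and 1 by a fit to the compared arrays.

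Both catalytic head genes of the ATP synthase fell over that time. Atp5a1, the alpha subunit, measured 12.55, 12.73 and 12.71 at 1 h and 12.36, 12.36 and 12.39 at 24 h, a fall of 0.29 (adjusted p = 0.0011). Atp5b, the beta subunit, measured 13.61, 13.66 and 13.67 and 13.46, 13.44 and 13.39, a fall of 0.21 (adjusted p = 0.00395). The arrays of the 2 times did not overlap for either gene. In complex III the core gene Uqcrc2 fell by 0.29 and the Rieske iron-sulfur gene Uqcrfs1 by 0.30, while the small subunit Uqcrq rose by 0.29 (adjusted p = 0.00413). The mean of all Uqcrq probe sets gave 0.019 (adjusted p = 0.924). In complex I 7 genes fell, or 20.6% of those tested, against 11.5% of all genes and 17.8% of the bright ones. Among these 7 were Ndufb8 by 0.29 and Ndufa3 by 0.28, and the mean of the Ndufb8 probe sets gave -0.051 (adjusted p = 0.679).

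The calls of Cox6a2, Atp5a1, Atp5b and Ndufa3 over time were kept in each of 14 other settings. The 22 members called became 12 and 6 without untreated array 2 or 3 at 1 h, and 13, 9 and 14 without untreated array 1, 2 or 3 at 24 h. Untreated array 1 at 1 h had the lowest median of the bright members in its group, 11.47 against 11.61 and 11.71, and without it 28 members were called.

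Of 7 tested isoforms known for special tissues or low oxygen, 1 rose and 1 fell in untreated cells between 1 and 24 h. These are 14.3% each, near the 11.6% higher and 11.5% lower of all tested genes. Cox6a2, the heart and muscle form of a complex IV subunit, measured 7.95, 7.48 and 7.72 in untreated cells at 1 h and 8.94, 8.95 and 9.03 at 24 h. The groups were far apart, and the difference was 1.25 ± 0.16 or 2.39-fold (adjusted p = 1.44e-06), with its other probe set at 1.11. At 24 h it measured 8.86, 8.85 and 8.62 with PTH and 8.61, 8.68 and 8.84 with PTHrP, differences of -0.19 ± 0.16 and -0.26 ± 0.16 from untreated cells (adjusted p = 0.554 and 0.49). The common form Cox6a1 fell by 0.17 over the same time (adjusted p = 0.0494), a call kept in 5 of 14 other settings and lost without any 1 of 5 of the 6 arrays, all but untreated array 1 of 1 h (adjusted p up to 0.236). Of 9 tested muscle markers 0 were higher at 24 h and 2 lower, and their summed intensity was 1040 to 1120 at 1 h and 898 to 945 at 24 h.

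Cox7a1, the muscle and brown fat form of another complex IV subunit, lay near the lower limit used for testing. At 6 h it measured 5.26, 5.62 and 5.38 in untreated cells, 5.82, 5.80 and 6.27 with PTH and 6.13, 6.13 and 5.64 with PTHrP. All ligand arrays lay above the untreated ones, with a rise of 0.55 with PTH (SE 0.20, adjusted p = 0.039) and 0.55 ± 0.20 with PTHrP (adjusted p = 0.0528). At 24 h the values were -0.42 ± 0.20 with PTH (adjusted p = 0.213) and -0.53 ± 0.20 with PTHrP (adjusted p = 0.146). The change of effect from 6 to 24 h was -0.97 ± 0.28 for PTH (adjusted p = 0.0145) and -1.08 ± 0.28 for PTHrP (adjusted p = 0.0119), the 1 member called for PTHrP against 12.1% of all genes. The rise with PTH was lost under cyclic loess or array weights, without untreated array 1 or 3 and without PTH array 3 (adjusted p up to 0.207), and its change of effect without untreated array 1 of 24 h or PTH array 3 of 6 h (adjusted p up to 0.051).

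Cox8b, also a muscle and brown fat form, had -0.30 ± 0.10 with PTH at 24 h (adjusted p = 0.0661). Cox4i2, a form known from lung and low oxygen, had 0.14 ± 0.11 with PTH and 0.19 ± 0.11 with PTHrP at 6 h (adjusted p = 0.429 and 0.27), and its common counterpart Cox4i1 had -0.13 ± 0.058 and -0.016 ± 0.058. The testis forms Cox6b2 and Cox8c were not called in any comparison of a peptide with untreated cells. Cox6b2 lay near the lower limit used for testing, with a mean log2 of 5.33, and Cox4i2 and Cox8b were dim, at 6.11 and 6.92. Ndufa4l2 was also lower in untreated cells at 24 h than at 1 h, with a fall of 0.33 (adjusted p = 0.046), a call lost without any 1 of 5 of the 6 arrays, all but untreated array 3 of 24 h.

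**Figure D4:**
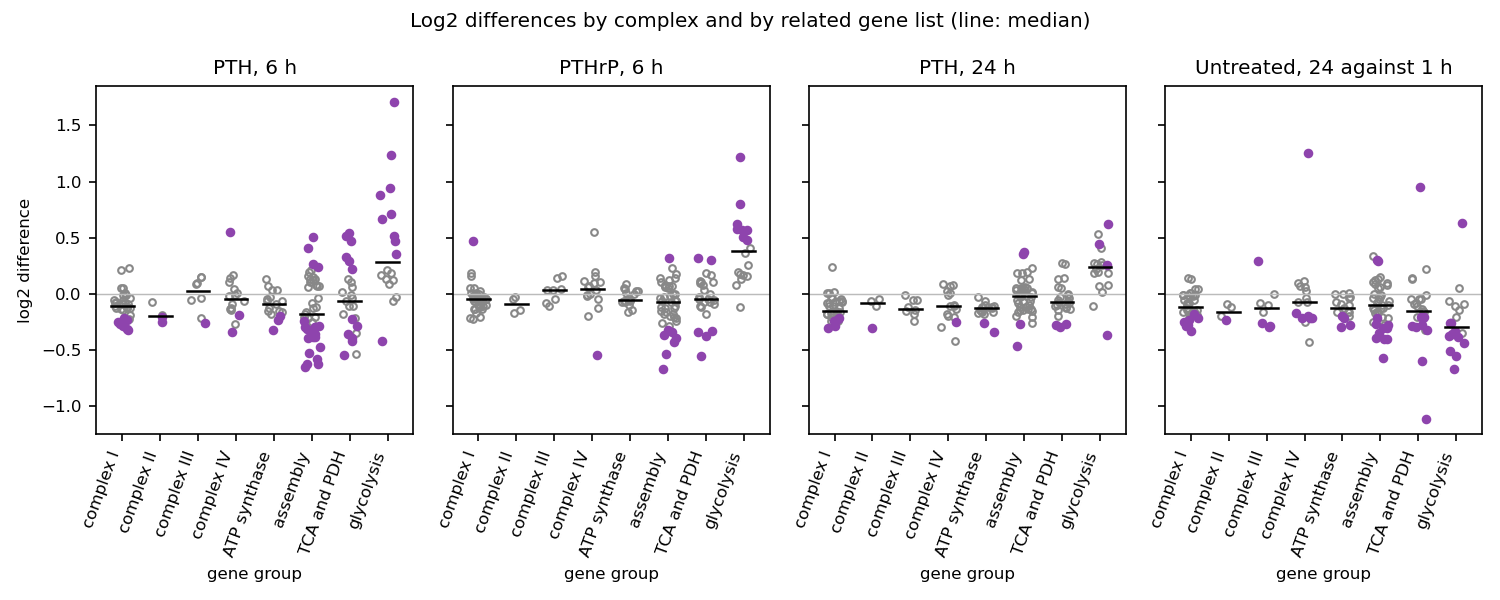
Log2 differences (vertical axis) of the members by complex and of related gene lists (horizontal axis) in 4 comparisons, with 1 point per gene, filled where limma's adjusted p is under 0.05, and a line at the median. With PTH at 6 h 16 of 79 members (20.3%) and 17 of 43 assembly factors (39.5%) are filled below 0, against 17.9% of all tested genes. Filled above 0 are 9 of 18 glycolysis genes (50%), against 11.4% of all tested genes.

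Related genes were taken as lists. They were set against all tested genes, whatever their brightness, and their counts in other settings are not given here. Of 43 tested assembly factors, which build the complexes, 17 fell and 4 rose with PTH at 6 h, or 39.5% and 9.3% against 17.9% and 11.4% of all tested genes, with a median of -0.18 against -0.0034. Nubpl, which helps to place iron-sulfur clusters in complex I, fell by 0.65 (adjusted p = 6.34e-06), and Ndufaf2, another complex I factor, by 0.52. Sdhaf3, a complex II factor, fell by 0.63, the complex IV factors Coa3, Coa6 and Surf1 by 0.58, 0.63 and 0.47, while Cox11, a copper chaperone of complex IV, rose by 0.51. With PTHrP at 6 h 7 fell and 1 rose (16.3% and 2.33%, against 12.2% and 8.7% of all genes), Ndufaf4 with a fall of 0.67 among them. At 24 h 2 fell and 2 rose with PTH (4.65% each, against 5.96% and 5.69% of all genes), and with PTHrP limma called 0, with 5 at an unadjusted p under 0.05.

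Among 21 regulators of mitochondrial genes, 6 rose and 7 fell with PTH at 6 h, or 28.6% and 33.3% against 11.4% and 17.9% of all tested genes. Myc measured 11.25, 11.10 and 11.05 untreated and 9.51, 9.91 and 9.75 with PTH, a fall of 1.41 (adjusted p = 3.97e-09), and the PGC-1 family gene Ppargc1b fell by 0.76. Tfam and Tfb1m, which act on mitochondrial DNA or its ribosomes, fell by 0.24 and 0.42, and Esrra, which encodes ERR alpha, by 0.26. Nrf1 rose by 0.35, Gabpb1, a GABP subunit, by 0.48 and Yy1 by 0.27. Hif1a, whose product drives the response to low oxygen, was higher by 1.02 after PTH and by 0.63 after PTHrP at 6 h, and by 0.56 and 0.49 at 24 h. With PTHrP at 6 h 2 regulators rose and 5 fell (9.52% and 23.8%, against 8.7% and 12.2% of all genes), among them Tfb2m, which fell by 0.67.

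Of 18 glycolysis genes 9 rose and 1 fell with PTH at 6 h, and 8 rose and 0 fell with PTHrP. These are 50% higher and 5.56% lower with PTH, against 11.4% and 17.9% of all tested genes. With PTHrP 44.4% were higher and 0% lower, against 8.7% and 12.2%. The glucose transporter gene Slc2a1 measured 10.50, 10.58 and 10.51 untreated, 12.16, 12.20 and 12.36 with PTH and 11.94, 11.63 and 11.67 with PTHrP, rises of 1.71 and 1.22. Hk2, a hexokinase, rose by 1.24 and 0.63 at 6 h, and by 0.87 and 0.78 at 1 h. In untreated cells 10 glycolysis genes were lower and 1 higher at 24 h than at 1 h (55.6% and 5.56%, against 11.5% and 11.6% of all genes). Among 25 genes of the tricarboxylic acid cycle and pyruvate dehydrogenase 6 rose and 6 fell with PTH at 6 h. These are 24% each, against 11.4% and 17.9% of all genes, with Suclg2 lower by 0.54 and Pdha1 higher by 0.47. Of 20 genes for electron carriers and nucleotide exchange 2 rose and 5 fell (10% and 25%, against the same 11.4% and 17.9%). Cycs, which encodes cytochrome c, was higher by 0.40 after PTH and by 0.23 after PTHrP. Etfa, which feeds electrons from fat oxidation to ubiquinone, fell by 0.49 and 0.41. The glycolysis, cycle and carrier genes named here were chosen after their values were seen.

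**Figure D5:**
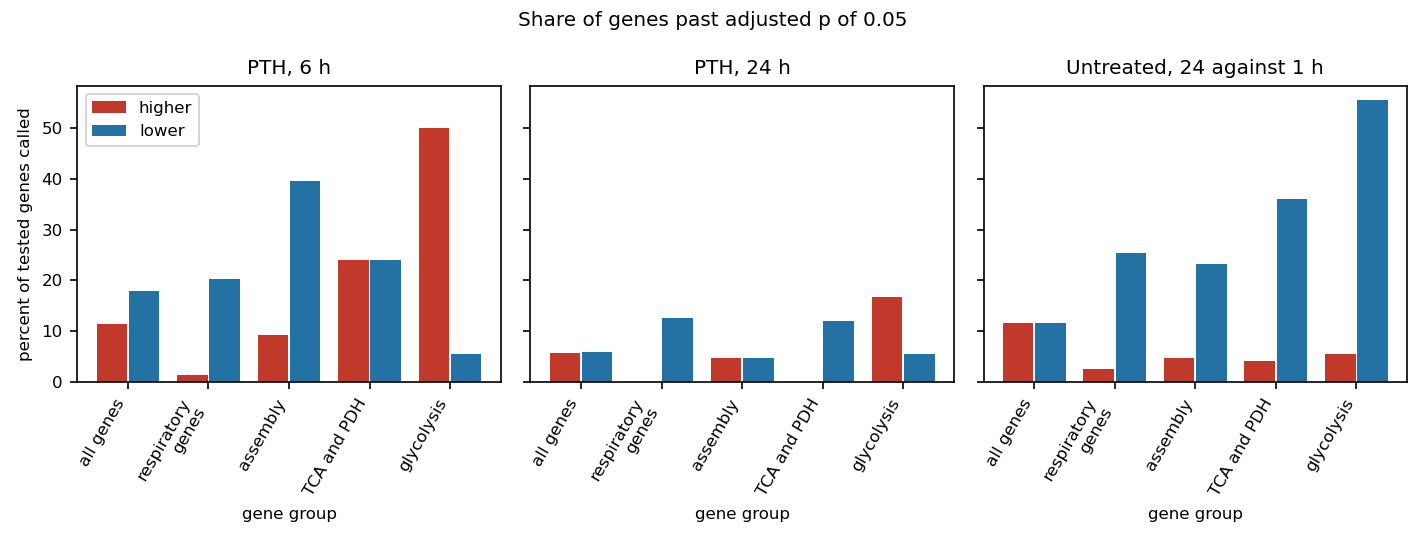
Percent of tested genes called higher or lower at an adjusted p under 0.05 (vertical axis), for all tested genes, the members and related lists (horizontal axis), in 3 comparisons. With PTH at 6 h 20.3% of the members were lower against 17.9% of all genes, with PTH at 24 h 12.7% against 5.96%, and in untreated cells at 24 h against 1 h 25.3% against 11.5%. Shares among bright genes are not drawn: 27%, 9.06% and 17.8% were lower in these 3 comparisons.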

How the data were processed

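RNA of 27 samples (9 groups of 3) was measured on 1-colour Affymetrix arrays, and the authors deposited linear intensity values per probe set, normalized by RMA per the submitters' processing notes, whose version is not given in the sources used here. Those values were used as deposited, after log2. Of 45101 probe sets, 64 were controls and 34945 others carried 1 gene symbol, and the one with the highest mean log2 stood for its gene. The probe sets of 17 members have names ending in s or x, given to probes that may match other transcripts. They gave 3 of the 17 calls with PTH at 6 h, 4 of the 10 at 24 h and 4 of the 22 in untreated cells over time. Genes that reached a log2 of 5 on 3 or more arrays were tested with limma 3.58.1 in R 4.3.3, in 1 fit over 27 arrays (18 residual degrees of freedom) with 13 comparisons, two-sided, with Benjamini-Hochberg adjustment over all 15711 genes. A gene was called at an adjusted p under 0.05. The number of arrays limits the precision. No labels give a batch. Same-numbered replicates deviated together in 1 of 9 pairs of groups of a time, untreated and PTHrP at 1 h (correlations 0.188, 0.266 and 0.449), where 0 members were called with or without the block. The script was tested on simulated data for PTH against untreated cells at 6 h, with 200 changed genes. It recovered 8 of 50 changes of 0.25 log2 units, 37 of 50 changes of 0.5 and 50 of 50 changes of 1. Changes near 0.25 were thus mostly missed there. The simulation drew the 200 genes at any brightness and left all others unchanged, while 17.9% of all tested genes fell and 11.4% rose in the data. Its shares recovered therefore do not carry over to the members, whose median SE in that comparison was 0.0744. A member not called may still differ within its 95% interval.

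Named with values were up to 4 called members per complex and comparison with the largest differences and arrays that did not overlap, the restricted isoforms with their counterparts, the Sdh genes, and genes of the regulator and assembly lists. Other members and genes were named after their values were seen. Atp5if1 was not found under that symbol. The members and lists were chosen with earlier results of these data known. Alternatives were quantile, cyclic loess and median normalization, no filter, the mean of all probe sets, fits to the compared arrays, array weights, a replicate block and leaving out each array.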

Additional observations from a re-analysis of the deposited data

Results flagged for a closer look

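The effect of a peptide against untreated cells differed between 6 and 24 h, by limma's test of that difference, in these members. For PTH the change was 0.42 ± 0.10 log2 units for Cox7a2l (adjusted p = 0.00354), 0.26 ± 0.089 for Ndufv1 (adjusted p = 0.0353), -0.42 ± 0.15 for Ndufa4 (adjusted p = 0.044) and -0.97 ± 0.28 for Cox7a1 (adjusted p = 0.0145). For PTHrP it was -1.08 ± 0.28 for Cox7a1 (adjusted p = 0.0119). The changes of Cox7a2l with PTH and of Cox7a1 with PTHrP were called in all 20 other settings, that of Cox7a1 with PTH in 18, that of Ndufv1 in 11 and that of Ndufa4 in 9.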

How the results depend on the processing

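Counts of members called moved with most settings. The counts over all genes in those settings are not given here or above. The moves therefore do not tell whether members shifted more than other genes. With PTH at 6 h (17 called) median centring gave 11 and array weights 29. With PTHrP at 6 h (2) quantile normalization gave 4, cyclic loess 5, the mean of all probe sets 6 and array weights 20. With PTH at 24 h (10) they were 21 by quantile, 16 by loess, 3 by centring, 0 in a fit to the compared arrays and 53 by weights. With PTHrP at 24 h (2) they were 7, 5 and 0 by quantile, loess and centring and 6 by weights. PTHrP against PTH (0) gave 5, 3, 1 and 18 at 6 h by quantile, loess, mean of probe sets and weights, and 9 at 24 h by weights. At 1 h (0) the mean of probe sets gave 1 with each peptide and weights gave 1 with PTHrP. Untreated cells at 24 h against 1 h (22) gave 34 by quantile and by loess and 37 by weights, and at 6 h (0) 1 in the compared arrays and 3 by weights. The change of the PTH effect (4) gave 9 by loess, 2 by centring, 8 by the mean of probe sets and 20 by weights, and that of PTHrP (1) gave 2, 4, 2, 2 and 11 by quantile, loess, mean of probe sets, compared arrays and weights. Leaving out 1 array gave 8 to 14 with PTH and 2 to 4 with PTHrP at 6 h, 2 to 15 and 0 to 2 at 24 h, 6 to 28 over time and 2 to 6 for the change of the PTH effect. Atp5g1 with PTH at 24 h turned to 0.047 by the mean of its probe sets. The cause of these moves was not tested. The replicate block, for numbers that mostly do not pair the samples, gave 14 members with PTH at 6 h, 10 at 24 h and 19 over time. The filter on dim genes moved no count by over 1.5 times.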
